A study of Mus musculus with 72 samples.

Results

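Paneth and antimicrobial peptide genes of the mouse intestine are described here by 7 genes, whose probe sets were taken by gene symbol: Lyz1, Mmp7, Ang4, Itln1, Reg3b, Reg3g and Defb37. They are 7 of 20789 genes with a named probe set on the array, and each had 1 probe set named in the platform annotation. RNA was measured on Affymetrix arrays in male C57BL/6J mice that were 8 weeks old when the diets began, lived under 12 h light and 12 h dark, and ate a ketogenic diet or chow for 4 weeks. The 36 intestine arrays, from tissue labelled INTESTINE (IEC), comprised 18 ketogenic and 18 chow arrays, with 3 per diet at each zeitgeber time (ZT, hours after lights on) of 0, 4, 8, 12, 16 and 20. Liver of the same design gave another 36 arrays. The labels leave unstated whether the 3 arrays of a group come from different mice, and each p-value refers only to variation among these arrays, which may be technical. Protocol text shared by all samples also describes daily fructose gavage (4 g/kg, 7 days) and 30% sucrose in drinking water for sucrose experiments, without stating whether either applies to these arrays.

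Paneth cells sit at the base of small intestinal crypts beside the stem cells and release granules of antimicrobial proteins into the lumen. Lysozyme, alpha-defensins and angiogenin 4 are granule proteins of this cell type in mice, and matrilysin, the product of Mmp7, cuts mouse alpha-defensin precursors into active peptides. The lectins Reg3b and Reg3g are made more widely along the epithelium, by enterocytes as well, and in mice their expression is known to respond to bacteria through MyD88 and interleukin-22.

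All 7 genes passed the filter on low values in intestine (40th percentile of mean log2 level over genes), and none passed it in liver. In intestine their mean levels stood between the 77.1th percentile (Defb37) and the 99.9th percentile (Lyz1) of named genes. For 6 of the 7 every intestine array exceeded every liver array, with intestine medians of 1885 (Ang4) to 11667 (Lyz1) and liver medians of 2.13 (Itln1) to 85.1 (Mmp7), in the authors' linear intensity units. Defb37 was the exception, because its lowest intestine array, at 54.7, lay within the liver range of 36.3 to 63.9. Of the marker lists, all 11 enterocyte, 8 goblet cell and 7 stem cell genes on the array passed the filter, and so did all 11 distal and 8 of 10 proximal small intestine genes, 7 of 12 colon genes and 6 of 12 T cell genes. Array medians were 107 to 121, but these are processed values, so they cannot show whether an array had low raw signal. A residual spread over 1.5 times the median array was found for 3 ketogenic intestine arrays (ZT0 replicate 1, ZT8 replicate 26 and ZT20 replicate 27). The first of these, at 2.11 times the median array, was the lowest intestine array for Lyz1, Mmp7, Ang4 and Itln1, so results are given with and without it.

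Reg3b and Reg3g are genes of 1 family on chromosome 6, and they differed between diets in the same direction. Their promoters, 250 bases before to 50 bases after the RefSeq start (GRCm38.p6), are shown because the values of both genes moved together from array to array, as described below. The Reg3b window is chr6:78370635-78370934 on the plus strand, and the Reg3g window is chr6:78468825-78469124 on the minus strand. Capitals mark matches, on either strand, to the TATA sequence TATAAA, the TCF site core CTTTGAT and the STAT spacing TTCNNNGAA. The nuclear receptor core AGGTCA, the E-box CACGTG and the TCF variant CTTTGAA were searched in the same way and had no match in these windows (they are held by 16.3%, 7.15% and 5.14% of promoters).
Reg3b: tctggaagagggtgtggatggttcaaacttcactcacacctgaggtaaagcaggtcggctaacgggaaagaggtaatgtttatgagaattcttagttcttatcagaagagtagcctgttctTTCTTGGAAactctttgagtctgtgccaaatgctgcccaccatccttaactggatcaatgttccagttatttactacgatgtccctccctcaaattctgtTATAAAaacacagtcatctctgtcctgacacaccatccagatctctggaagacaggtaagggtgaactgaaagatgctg
Reg3g: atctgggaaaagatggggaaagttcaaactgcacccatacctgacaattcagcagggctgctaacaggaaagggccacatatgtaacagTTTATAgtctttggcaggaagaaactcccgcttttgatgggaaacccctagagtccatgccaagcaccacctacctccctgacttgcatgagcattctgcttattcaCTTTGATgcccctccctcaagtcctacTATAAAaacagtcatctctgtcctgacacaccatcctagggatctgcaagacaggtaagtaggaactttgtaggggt
The windows were identical at 69.9% of 296 aligned positions. Among the other pairs of the 6 genes with a promoter entry, identity ranged from 48.6% to 61.8%. TATAAA stood 29 bases before the start in Reg3b and 27 bases before it in Reg3g, with another match in Reg3g at 161 bases on the opposite strand, and is held by 13.6% of all 32851 promoters. TTCNNNGAA matched at 129 bases before the start in Reg3b (8.30% of promoters), and CTTTGAT at 54 bases before the start in Reg3g (3.73% of promoters).

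Over all time points 4 of the 7 genes differed between diets, with Reg3b and Reg3g higher and Itln1 and Defb37 lower on the ketogenic diet. Across all 12473 genes tested, 50.9% were called, 19.7% higher and 31.2% lower, so the share of the 7 that was called is near that of genes at large. The median difference of the 7 genes was -0.05 on the log2 scale, against -0.02 for all genes tested. Lyz1, Mmp7 and Ang4 did not pass the test. Differences are on the scale of log2(intensity + 16), and a gene was called when limma's Benjamini-Hochberg adjusted p over all tested genes was under 0.05. Since bulk RNA was measured, fewer cells of a type and less RNA per cell cannot be told apart.

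**Figure D1:**
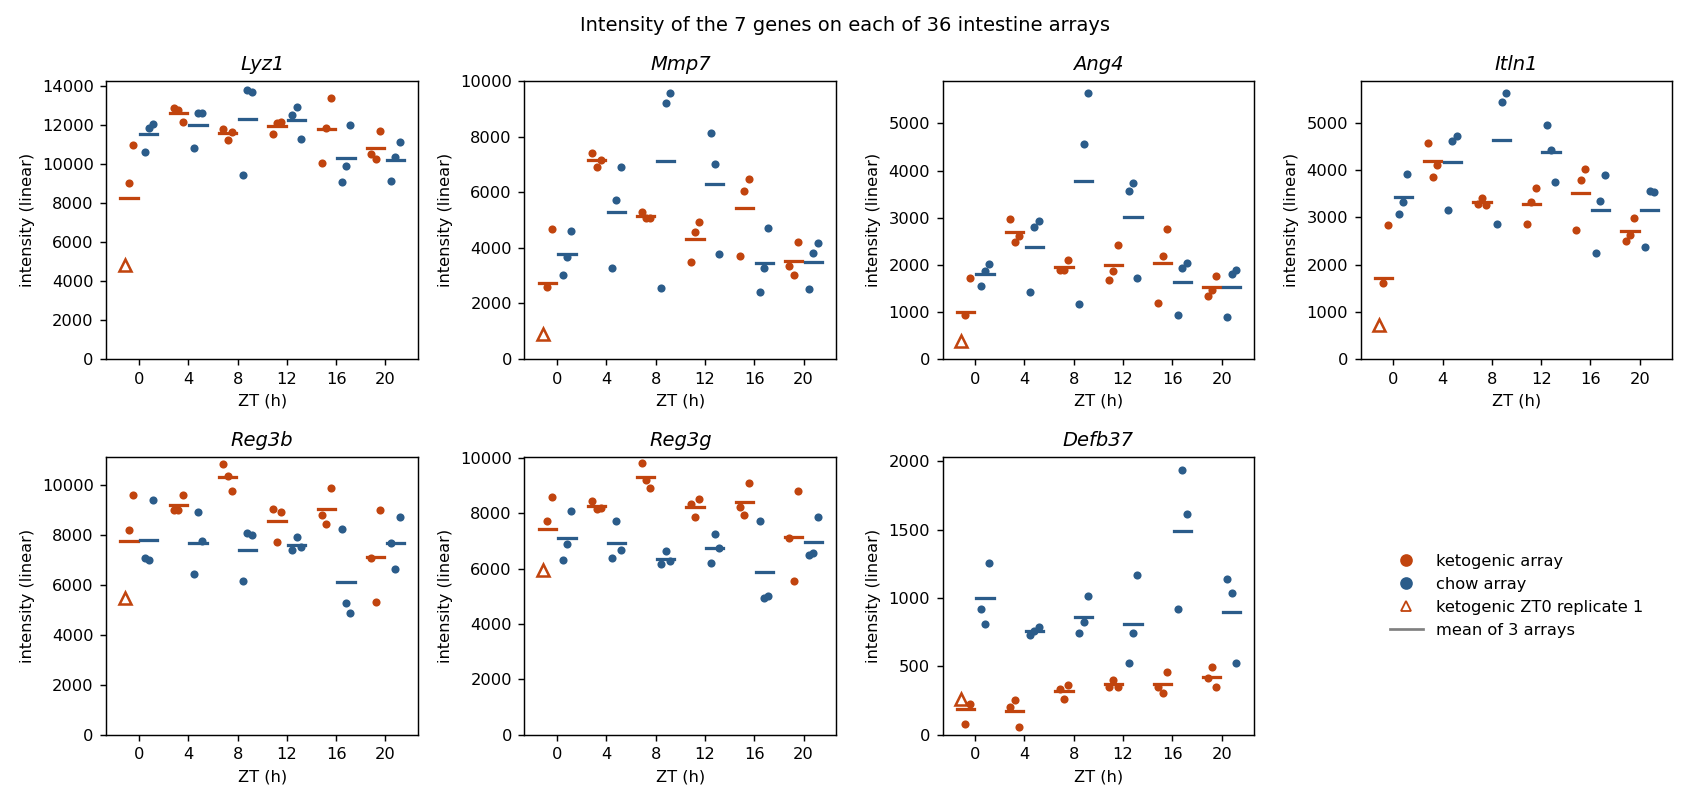
Linear intensity (vertical axis, from 0) of each gene on the 36 intestine arrays against ZT in hours, with ketogenic arrays left of chow arrays and a bar at the mean of 3 arrays. Defb37 is lower on all 18 ketogenic arrays (54.7 to 498) than on all 18 chow arrays (522 to 1940), and the open triangle, ketogenic ZT0 replicate 1, is the lowest array for Lyz1, Mmp7, Ang4 and Itln1.

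Among the granule genes, Lyz1 (lysozyme, which cleaves bacterial cell wall peptidoglycan) ranged from 4845 to 13384 with a median of 11667 on ketogenic arrays, and from 9061 to 13806 with a median of 11572 on chow arrays. The ranges overlapped almost wholly once the lowest ketogenic array was set aside, the next lowest being 9009. The log2 difference was -0.05 ± 0.07 (SE, n = 18 per diet, adjusted p = 0.560), and 0.01 ± 0.05 without that array (adjusted p = 0.932).

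Mmp7 (matrilysin) ranged from 913 to 7431 with a median of 4809 on ketogenic arrays, and from 2417 to 9570 with a median of 3992 on chow arrays. Here the medians and the fitted means pointed opposite ways, with a log2 difference of -0.04 ± 0.18 (adjusted p = 0.849), which became 0.06 ± 0.15 without ketogenic ZT0 replicate 1 (adjusted p = 0.746). Ang4 (angiogenin 4, a ribonuclease family protein that kills bacteria) ranged from 375 to 2977 with a median of 1875 on ketogenic arrays, and from 891 to 5636 with a median of 1912 on chow arrays. Its log2 difference was -0.27 ± 0.19 (adjusted p = 0.226). A single chow array bore on this value: without chow ZT8 replicate 10, at 1164 against 4556 and 5636 on the other arrays of that group, the difference was -0.39 with an adjusted p of 0.0457.

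Itln1 (intelectin 1, a lectin that binds microbial glycans) fell on the ketogenic diet. It ranged from 719 to 4575 with a median of 3264 on ketogenic arrays, and from 2236 to 5637 with a median of 3645 on chow arrays. The groups overlapped over most of their range. The log2 difference was -0.34 ± 0.12 (1.26-fold lower, adjusted p = 0.0211). Without ketogenic ZT0 replicate 1 it was -0.25 ± 0.09 (adjusted p = 0.0275), and without all 3 arrays of wide spread -0.25 ± 0.10 (adjusted p = 0.0416).

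The lectin genes rose by 1.17-fold (Reg3b) and 1.22-fold (Reg3g). Reg3g, whose product binds peptidoglycan of Gram-positive bacteria, ranged from 5551 to 9803 with a median of 8283 on ketogenic arrays, and from 4953 to 8093 with a median of 6591 on chow arrays. The ketogenic median thus exceeded the highest chow value. The log2 difference was 0.28 ± 0.06 (1.22-fold, adjusted p = 0.000296), and 0.31 ± 0.06 without ketogenic ZT0 replicate 1. Reg3b ranged from 5298 to 10838 with a median of 8992 on ketogenic arrays, and from 4897 to 9394 with a median of 7602 on chow arrays. Its ketogenic and chow values overlapped more than those of Reg3g. Its log2 difference was 0.22 ± 0.08 (1.17-fold, adjusted p = 0.0157), and 0.26 ± 0.07 without that array (adjusted p = 0.00274). Reg3a, another lectin gene of the family, looked at after its values were seen, ranged from 677 to 1847 on ketogenic arrays and from 799 to 2038 on chow arrays, and its difference of -0.05 ± 0.07 was not called (adjusted p = 0.612).

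Defb37, a member of the beta-defensin family of antimicrobial peptides, showed the largest difference of the 7. It ranged from 54.7 to 498 with a median of 341 on ketogenic arrays, and from 522 to 1940 with a median of 870 on chow arrays. The diets did not overlap on any array. Only 0.233% of tested genes had all 18 ketogenic arrays below all 18 chow arrays. The log2 difference was -1.67 ± 0.16 (3.18-fold lower, adjusted p = 1.49e-09), which ranked 5 from the lowest of 12473 genes. Leaving out any single array kept it between -1.73 and -1.57.

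**Figure D2:**
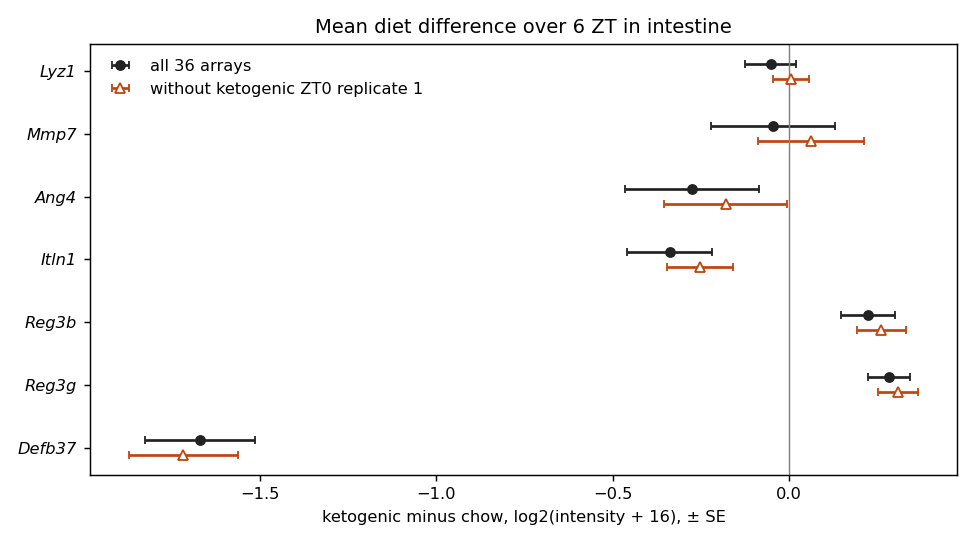
Ketogenic minus chow difference in log2(intensity + 16) for each gene, averaged over 6 ZT, with SE bars, for all 36 arrays (filled circles) and without ketogenic ZT0 replicate 1 (open triangles). Defb37 lies at -1.67 and -1.72, Reg3b and Reg3g lie above 0 in both, and Lyz1 and Mmp7 lie close to 0 on either side of it.

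At single time points, with 3 arrays per diet, 9.89% of all genes were called at ZT0, 3.38% at ZT4, 7.07% at ZT8, 1.66% at ZT12, 7.82% at ZT16 and 6.35% at ZT20. Genes called lower made up 7.52%, 2.44%, 5.8%, 1.02%, 5.64% and 5.04% at these times in order, and genes called higher 2.37%, 0.946%, 1.27%, 0.641%, 2.18% and 1.31%. Defb37 was called lower at 4 of 6 time points. At ZT0 its intensity was 261, 79.1 and 226 on ketogenic arrays, against 921, 813 and 1259 on chow arrays (log2 difference -2.43 ± 0.38, adjusted p = 0.000123). At ZT4 it was 207, 256 and 54.7 on ketogenic arrays, against 732, 758 and 786 on chow arrays (-2.25 ± 0.38, adjusted p = 0.000915). The lowest ketogenic values thus came in the first hours of the light phase, and 1 array at each of these times was far below the other 2.

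At ZT8 the intensity of Defb37 was 335, 265 and 367 on ketogenic arrays, against 748, 823 and 1016 on chow arrays (-1.38 ± 0.38, adjusted p = 0.0270). At ZT16 it was 346, 306 and 456 on ketogenic arrays, against 917, 1940 and 1616 on chow arrays (-1.92 ± 0.38, adjusted p = 0.00188). At ZT12 and ZT20, where the differences of -1.04 ± 0.38 and -1.01 ± 0.38 were not called (adjusted p = 0.138 and 0.111), the highest ketogenic values, 401 and 498, still lay below the lowest chow values, 525 and 522. For 13% (ZT8) to 18.8% (ZT4) of all genes the 3 ketogenic arrays lay below the 3 chow arrays at a single time point, with 18.2% at ZT0, 18.3% at ZT12, 16.7% at ZT16 and 15.8% at ZT20. The call at ZT8 was lost without chow replicate 11 or 12 or ketogenic replicate 24 or 25 of that time point, with adjusted p up to 0.177, while the calls at ZT0, ZT4 and ZT16 held without any single array.

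Reg3g was called higher at ZT8 and ZT16, where all 3 ketogenic arrays exceeded all 3 chow arrays. At ZT8 it was 9803, 9193 and 8913 on ketogenic arrays, against 6178, 6630 and 6295 on chow arrays (0.55 ± 0.15, adjusted p = 0.0220). At ZT16 it was 8227, 7944 and 9098 on ketogenic arrays, against 7714, 4953 and 5027 on chow arrays (0.54 ± 0.15, adjusted p = 0.0197). The ketogenic arrays were alike at both times, and at ZT16 the chow group split into 1 higher and 2 lower arrays. These groups also did not overlap at ZT4 and ZT12, with differences of 0.26 and 0.29 that were not called (adjusted p = 0.400 and 0.257). The ZT8 call was lost without chow replicate 11 or 12 or ketogenic replicate 24 or 25 (adjusted p up to 0.107), and the ZT16 call without chow replicate 8 or 26 or ketogenic replicate 6 or 23 (adjusted p up to 0.135). Non-overlap of this kind, all ketogenic arrays above, was found for 9.95% of all genes at ZT4, 7.49% at ZT8, 13.4% at ZT12 and 14.6% at ZT16.

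With all arrays Reg3b was called at ZT16 alone, with 8798, 8447 and 9892 on ketogenic arrays, against 8228, 5272 and 4897 on chow arrays (0.60 ± 0.19, adjusted p = 0.0456). Leaving out each array in turn gave adjusted p of 0.00772 to 0.212 for this value, which stayed under 0.05 in 20 of 36 runs; the largest losses were without chow replicate 26 (0.45) and replicate 8 (0.51) of ZT16. The call was also lost with no filter (adjusted p = 0.0661), quantile normalization (0.0534), median centring (0.0567) and a variance trend with robust eBayes (0.0523). At ZT8 Reg3b was 10838, 10374 and 9746 on ketogenic arrays and 6145, 8095 and 7989 on chow arrays, with no overlap and a difference of 0.49 ± 0.19 that was not called (adjusted p = 0.108) but was called without the 3 arrays of wide spread (0.53 ± 0.17, adjusted p = 0.0253). At ZT0 and ZT20 the ketogenic minus chow differences of both lectin genes lay between -0.13 and 0.05. Without ketogenic ZT0 replicate 1 the ZT0 differences were 0.19 ± 0.19 (Reg3b) and 0.20 ± 0.15 (Reg3g), and without ketogenic ZT20 replicate 27 and the other arrays of wide spread the ZT20 differences were 0.06 ± 0.17 (Reg3b) and 0.19 ± 0.14 (Reg3g), none of them called.

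Lyz1 and Itln1 were called lower at ZT0, and neither call held without ketogenic ZT0 replicate 1. The Itln1 call was also lost without chow ZT0 replicate 23 (adjusted p = 0.0506), and the Lyz1 call without chow ZT0 replicate 2, 22 or 23 (adjusted p of 0.0540 to 0.129). Itln1 was 719, 1609 and 2846 on ketogenic arrays, against 3061, 3331 and 3909 on chow arrays (-1.19 ± 0.30, adjusted p = 0.0102). Without that array the difference was -0.67 ± 0.25 (adjusted p = 0.126). Lyz1 was 4845, 9009 and 10987 on ketogenic arrays, against 10630, 11855 and 12069 on chow arrays (-0.55 ± 0.18, adjusted p = 0.0418), and -0.21 ± 0.14 without that array (adjusted p = 0.422). At ZT0 Mmp7 and Ang4 differed by -0.73 ± 0.43 and -1.07 ± 0.46 (adjusted p = 0.303 and 0.144), and without the array by -0.09 ± 0.40 and -0.50 ± 0.47. The summed intensity of the 7 stem cell markers on this array was 14982, against 36192 and 36601 on the other ketogenic ZT0 arrays. The 15 dividing cell markers summed to 9288, against 16339 and 17061. Its enterocyte (96597) and proximal small intestine (25743) sums were the highest of all 36 arrays, and both of these lists hold Lct and Fabp1. In mean log2 level over the tested genes of a list, the array deviated from its group mean by -0.64 (stem cell) and -0.60 (dividing cell). The deviation was 0.21 for the enterocyte list and only 0.06 for the proximal list. The part of these markers in the ZT0 values was not tested.

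A test of whether the diet difference varied with time called 0.0321% of all genes and none of the 7 by limma. Before adjustment 2 of the 7, Itln1 and Defb37, were under 0.05, as were 5.44% of all genes, and their adjusted p were 0.900 and 0.901. The time-resolved values above are therefore not shown to differ from one another.

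A 24 h rhythm was fitted to each gene on each diet. On the ketogenic diet, where 14.6% of all genes were called rhythmic, Defb37 was the only one of the 7 called. Its fitted curve had an amplitude of 0.67 ± 0.17 (log2, peak above the mean) and peaked at ZT 14.9 ± 0.95 h (adjusted p = 0.0148), so its ketogenic levels were higher in the dark phase than in the early light phase. Without ketogenic ZT4 replicate 20, the array at 54.7, the amplitude was 0.50 and the adjusted p 0.0659, and with each diet fitted alone the adjusted p was 0.0528. The other 6 genes had ketogenic amplitudes of 0.17 (Reg3g) to 0.45 (Ang4) with adjusted p of 0.105 to 0.258 and fitted peaks between ZT 8.73 and ZT 10.9. Without ketogenic ZT0 replicate 1 the amplitude was 0.09 for Lyz1, 0.23 for Itln1, 0.28 for Ang4, 0.30 for Mmp7, 0.19 for Reg3b and 0.14 for Reg3g (adjusted p of 0.153 to 0.452).

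On chow, where 8.91% of all genes were called rhythmic by limma, none of the 7 was. Before adjustment 2 of the 7, Ang4 and Mmp7, were under 0.05, as were 23.2% of all genes (adjusted p = 0.147 and 0.212), with amplitudes of 0.57 ± 0.20 and 0.49 ± 0.19 and fitted peaks both at ZT 8.2. Chow levels of both were highest at ZT8, where Mmp7 was 2571, 9218 and 9570, and the low value in that group came from replicate 10. Without this array the chow amplitude of Ang4 was 0.75 (adjusted p = 0.0281). The rhythm of Defb37 on chow had an amplitude of 0.26 ± 0.17 (adjusted p = 0.583).

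The difference in rhythm between diets called 0.0401% of all genes and none of the 7 by limma. Reg3g was the only one of the 7 under 0.05 before adjustment, as were 6.33% of all genes, with fitted peaks at ZT 9.29 on the ketogenic diet and ZT 1.57 on chow, but its adjusted p was 0.739, and for Defb37 it was 0.902. The ketogenic rhythm of Defb37 is thus not shown to differ from its chow curve. In the authors' deposited table, the JTK_CYCLE adjusted p of Defb37 on the ketogenic diet was 0.0199 with a lag of 16 h, and it was the only one of the 7 under 0.05, as were 12% of all probe sets. The BIO_CYCLE adjusted p of Defb37 on the same diet in the authors' deposited table was 0.146, and none of the 7 was under 0.05, against 11.1% of all probe sets. On chow the methods in the authors' deposited table differed the other way: none of the 7 was under 0.05 by JTK_CYCLE (14.4% of all probe sets), and 4 were by BIO_CYCLE (17.3% of all probe sets), Itln1 (0.0054), Mmp7 (0.0118), Ang4 (0.0326) and Lyz1 (0.0393).

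Cyber-T p-values for diet at single times, which are not adjusted, are also in the authors' deposited table. At ZT0, 4 of the 7 were under 0.05 in the authors' deposited table (Lyz1, Ang4, Itln1 and Defb37), as were 9.29% of all probe sets. The authors' deposited table had Mmp7, Reg3b, Reg3g and Defb37 under 0.05 at both ZT4 (12.8% of all probe sets) and ZT16 (15.1%), and Reg3b, Reg3g and Defb37 at ZT8 (9.67%). At ZT12 the authors' deposited table had Ang4, Itln1, Reg3b, Reg3g and Defb37 under 0.05 (19.4%), and at ZT20 Defb37 alone (9.9%).

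Around these 7 genes, a list of Paneth cell and antimicrobial genes held 28 others that could be tested, of which 6 were higher on the ketogenic diet, 3 were lower and 19 were not called. Of all genes tested 19.7% were called higher and 31.2% lower. The median log2 difference of these 28 genes was -0.02, equal to that of all genes. The largest rises were those of Duoxa2, Duox2 and Nos2. Duox2, a dual oxidase that makes hydrogen peroxide at the epithelial surface, ranged from 1220 to 6435 (median 4406) on ketogenic arrays and from 1051 to 3929 (median 2159) on chow arrays, a rise of 0.80 ± 0.16 (1.75-fold, adjusted p = 0.000183). Its maturation factor gene Duoxa2 rose by 0.88 ± 0.20 (1.84-fold, adjusted p = 0.000770), and Nos2, the inducible nitric oxide synthase, by 0.73 ± 0.17 (1.65-fold, adjusted p = 0.000993).

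Pla2g5, a secreted phospholipase, rose by 0.51 ± 0.07 (1.42-fold, adjusted p = 1.08e-06), and Pigr, the receptor that carries IgA across the epithelium, by 0.34 ± 0.05 (1.26-fold, adjusted p = 6.22e-06). Defb45, of the same family as Defb37, rose by 0.17 ± 0.05 (adjusted p = 0.00653), the opposite direction to Defb37. Lower were Reg4, a lectin gene of secretory cells (-0.43 ± 0.14, adjusted p = 0.00965), and the guanylin genes Guca2a (-0.17 ± 0.04, adjusted p = 0.00118) and Guca2b (-0.18 ± 0.04, adjusted p = 0.000842). None of the 7 alpha-defensin genes of this list that were tested was called, with differences of -0.05 to 0.00 and a lowest adjusted p of 0.480 by limma. Without ketogenic ZT0 replicate 1 the whole list, the 7 genes included, had 10 genes higher and 6 lower, against 8 and 5 with all arrays. Probe sets of such families (alpha-defensins, angiogenins, lysozymes, Reg3 genes) can take signal from near-identical relatives, so single members are uncertain.

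**Figure D3:**
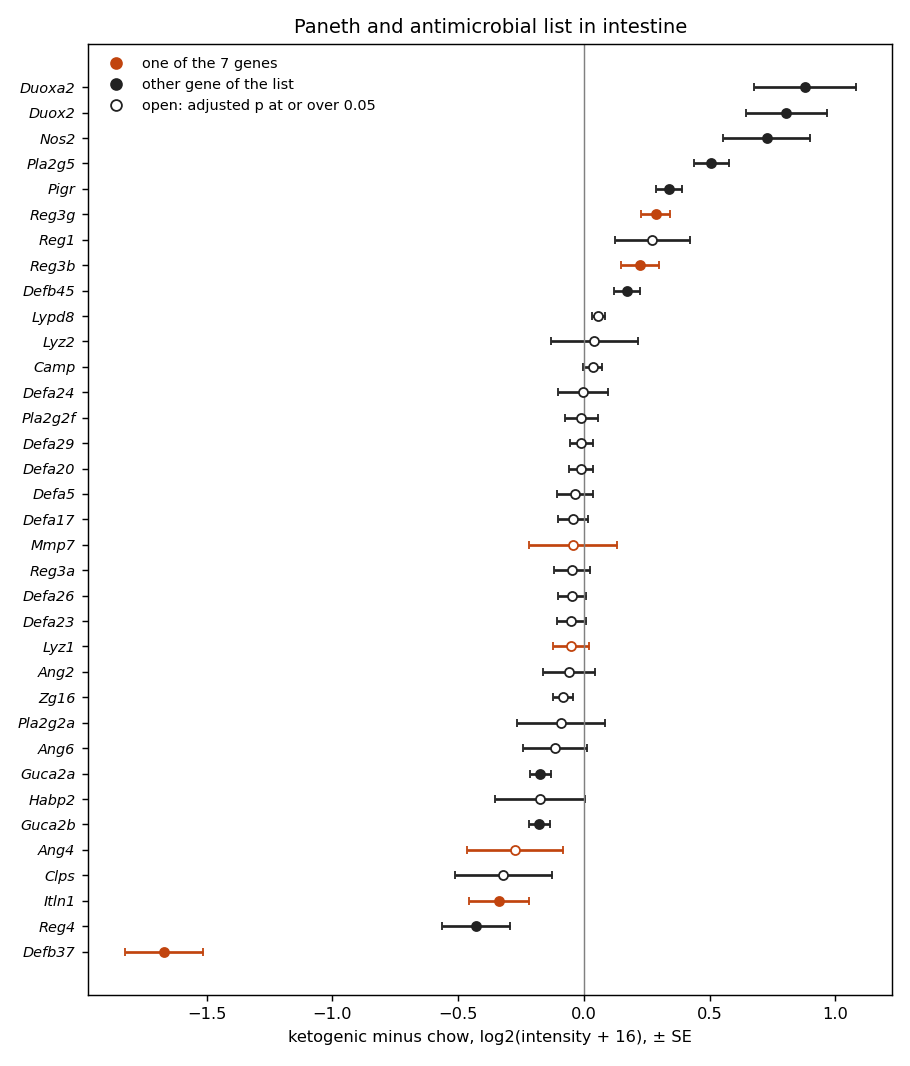
Ketogenic minus chow difference in log2(intensity + 16) with SE bars for the 35 tested genes of the Paneth and antimicrobial list in intestine, the 7 genes described here in red, filled where the adjusted p is under 0.05. The 7 alpha-defensin genes of this list lie between -0.05 and 0.00, and Defb37 at -1.67 stands alone at the lower end.

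A list of genes tied to the Paneth cell programme or to microbe sensing was called in both directions: 6 higher, 9 lower and 13 not called of 28 tested. That is near the share of genes at large, of which 19.7% were called higher and 31.2% lower, the shares to set beside the list counts below. The lowest adjusted p belonged to Il10rb, a subunit of the interleukin-22 receptor (-0.31 ± 0.04, adjusted p = 1.54e-06), Tlr3, a receptor for double-stranded RNA (-0.29 ± 0.04), and Rnase1 (-0.53 ± 0.08), all lower. Rnase1, a secreted ribonuclease, was also on the pancreatic acinar cell list. Markers of other cells also differed by diet: 5 of 6 T cell genes were lower, among them Ccl5 (-1.16 ± 0.20) and Gzma (-1.03 ± 0.16). Lower too were 8 of 11 distal small intestine genes, led by the hormone gene Fgf15 (-2.06 ± 0.23), and 7 of 10 enteroendocrine genes. Both of these lists hold Pyy and Nts. Of 5 tuft cell genes 3 were lower and 1 higher, and of 8 proximal small intestine genes 4 were lower and 1 higher. Summed intensity of the distal list was 29505 to 44274 on ketogenic arrays and 38543 to 52072 on chow arrays, and that of the T cell list was 701 to 2776 on ketogenic arrays and 1208 to 4690 on chow arrays. Higher were 6 of 15 dividing cell genes, led by Mcm2 (0.30 ± 0.05) and Cdk1 (0.29 ± 0.06), with 1 lower, and 3 of 7 smooth muscle and stroma genes, led by Col1a1 (0.14 ± 0.03), with none lower. Of 3 macrophage and neutrophil genes tested 2 were higher and 1 lower. Of goblet cell genes 1 of 8 (Tff3, -0.12 ± 0.05) and of stem cell genes 2 of 7 were lower, and none higher. Of 11 enterocyte genes 3 were higher and 3 lower, and of 9 pancreatic acinar cell genes 3 were higher and 1 lower. Of 7 colon genes, with Ang4 itself among them, 2 were higher and none lower. Of 4 hepatocyte genes 2 were higher and 1 lower, of 3 adipocyte genes 1 was higher, and neither of 2 B and plasma cell genes was called. The part of these shifts in the values of the 7 genes was not tested.

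Within groups of the same diet and time, the 7 genes split by how they varied from array to array. Deviations from the group mean were correlated over the 36 arrays for all 21 pairs, with 100000 permutations within groups and Benjamini-Hochberg adjustment over the 21. Lyz1, Mmp7, Ang4 and Itln1 varied together, with Pearson r of 0.885 to 0.963 and Spearman rho of 0.867 to 0.947 in their 6 pairs (adjusted permutation p = 3e-05 for each, from the smallest p the permutations can give). The same array was the lowest of its group for all 4 genes in 9 of 12 groups, and the highest in 7 of 12. Without ketogenic ZT0 replicate 1 r was 0.896 to 0.960, and without the 2 arrays farthest from the median it was 0.898 to 0.945.

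Reg3b and Reg3g made a second pair, with r of 0.931 and rho of 0.910 (adjusted permutation p = 3e-05), and r of 0.907 without the 2 farthest arrays. The lectin genes correlated with the 4 granule genes at r of 0.229 to 0.527 (adjusted permutation p of 0.103 to 0.368), and at 0.00776 to 0.303 without the 2 farthest arrays. Within the diets these 8 pairs had r of 0.632 to 0.765 on ketogenic arrays (0.479 to 0.630 without ZT0 replicate 1) and -0.111 to 0.266 on chow arrays, a difference that was not tested. Defb37 correlated with none of the other 6 beyond r of -0.294 to -0.0169 (adjusted permutation p of 0.276 to 0.958). None of these pairs passed the test over all 36 arrays.

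**Figure D4:**
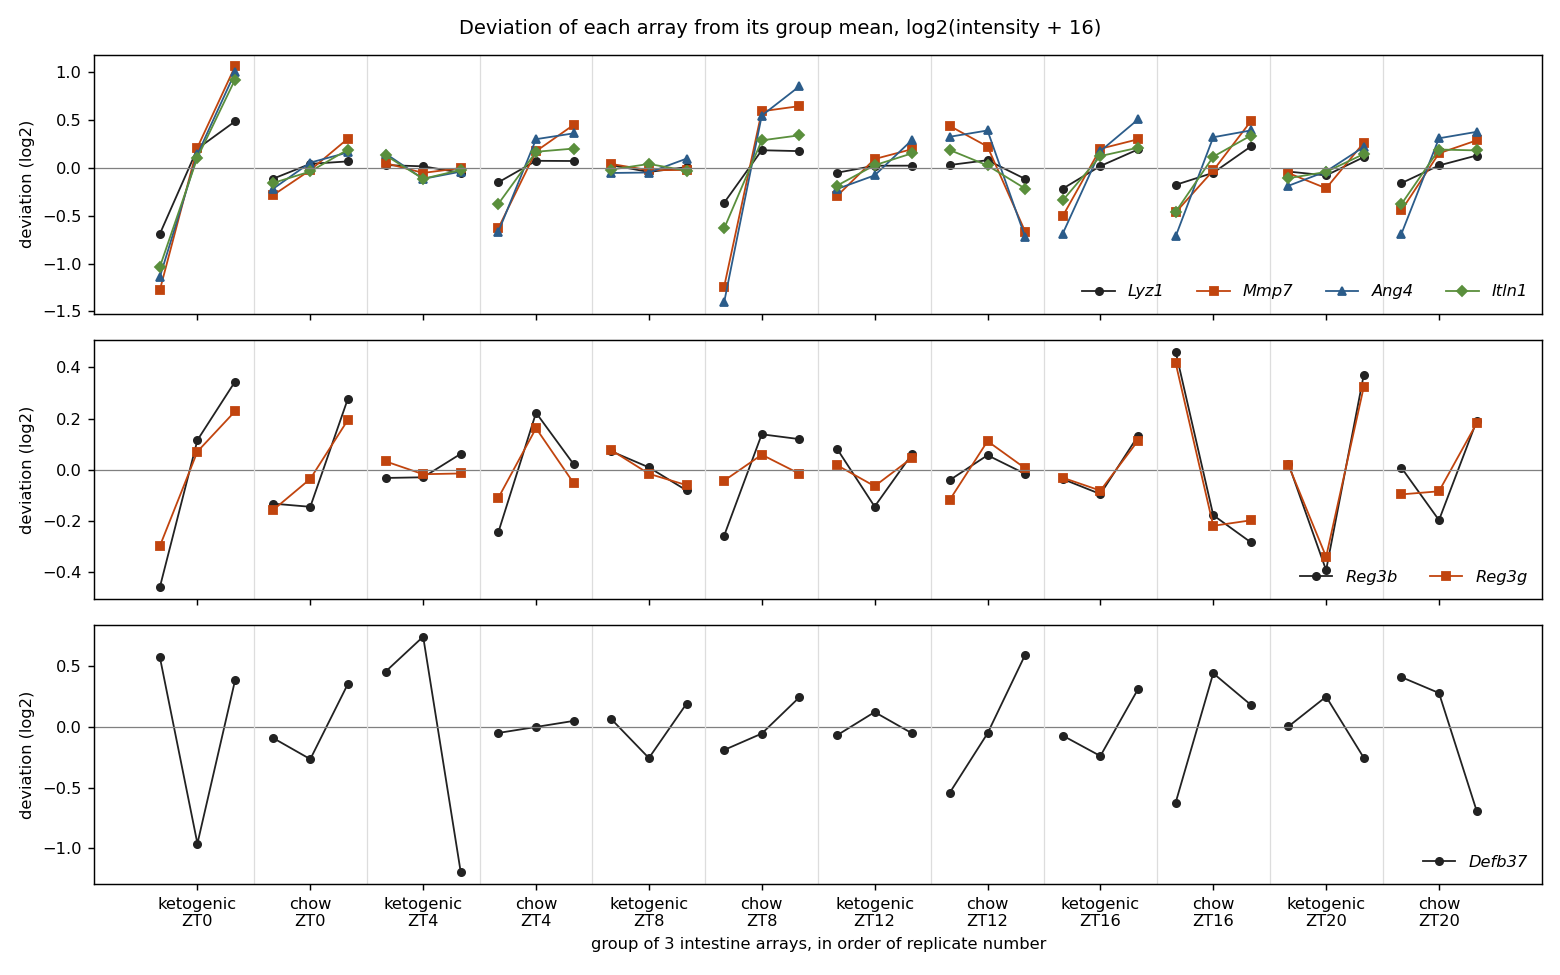
Deviation of each intestine array from its group mean in log2(intensity + 16), with 3 arrays per group joined by lines and groups ordered by ZT, ketogenic left of chow. The 4 granule genes (top) follow each other, with ketogenic ZT0 replicate 1 and chow ZT8 replicate 10 lowest, Reg3b and Reg3g (middle) follow each other, and Defb37 (bottom) follows neither.

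The genes whose deviations were most like those of the granule genes, among 11922 named genes, were mostly alpha-defensin genes: Defa37, Defa35 and Defa34 for Lyz1 (r of 0.978 to 0.985), Defa35 and Defa5 for Mmp7 (r of 0.958 and 0.957), Defa24 for Ang4 (r = 0.966), and Defa35, Defa5 and Defa34 for Itln1 (r of 0.966 to 0.970). The remaining ones were the lipase-related gene Pnliprp2 for Mmp7 and Ang4 (r of 0.954 and 0.960) and the colipase gene Clps for Ang4 (r = 0.954). Pnliprp2 is also on the pancreatic acinar cell list. For both Reg3b and Reg3g the nearest gene was Dmbt1 (r of 0.881 and 0.898), which encodes a secreted scavenger receptor glycoprotein that binds bacteria and which was itself higher on the ketogenic diet (0.60 ± 0.06, adjusted p = 2.19e-08). Next came Mfsd4a and Ppt1 for Reg3b (r of 0.797 and 0.792), and Pof1b and Ppt1 for Reg3g (r of 0.809 and 0.786). By limma Mfsd4a was lower on the ketogenic diet (-0.64 ± 0.07, adjusted p = 1.71e-08) and Ppt1 higher (0.24 ± 0.07, adjusted p = 0.00630). Pof1b was not called (0.02 ± 0.06, limma adjusted p = 0.799), so the nearest genes did not share 1 direction by diet. The nearest genes to Defb37 reached only r of 0.723 (Wipf3), 0.716 (Parp6) and 0.705 (Tsc22d1). These coefficients are the highest among 11922 and are given as a description over 36 arrays, with no test.

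Marker lists were set against the same deviations, in 77 relations of 11 lists with 7 genes. Goblet cell markers followed the granule genes, with r of 0.694 (Lyz1) to 0.879 (Ang4), rho of 0.710 to 0.821 and adjusted permutation p of 0.00231 to 0.00631 for r and 0.00424 to 0.0105 for rho. Stem cell markers did so too, with r of 0.704 (Ang4) to 0.873 (Lyz1) and adjusted permutation p of 0.00631 to 0.0252, while for Ang4 rho of 0.568 missed the threshold (adjusted permutation p = 0.0532). Without the 2 arrays farthest in the markers each r was lower, at 0.640 to 0.829 for goblet cells and 0.604 to 0.709 for stem cells. The fall was larger for stem cell markers, from 0.873 to 0.709 for Lyz1 and from 0.815 to 0.629 for Itln1. Enterocyte markers had r of -0.319 to -0.166 with these genes, and pancreatic markers 0.332 to 0.489, neither past the threshold (lowest adjusted permutation p for r 0.0890). With pancreatic markers these genes had r of 0.658 to 0.780 on chow arrays and 0.0765 to 0.194 on ketogenic arrays. That difference between diets was not tested. Dividing cell markers passed by r for Mmp7 alone (r = 0.614, adjusted permutation p = 0.0493), with rho of 0.444 not past it (adjusted permutation p = 0.101) and r of 0.334 without the 2 farthest arrays. Over all arrays no list passed for Reg3b, Reg3g or Defb37. With goblet cell markers Reg3b had r of 0.779 on ketogenic arrays (0.693 without ZT0 replicate 1) and 0.153 on chow arrays. Reg3g had r of 0.773 on ketogenic arrays (0.700 without ZT0 replicate 1) and -0.145 on chow arrays, and neither difference between diets was tested. The highest r of Defb37 was with distal small intestine markers (0.523, adjusted permutation p = 0.0890).

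**Figure D5:**
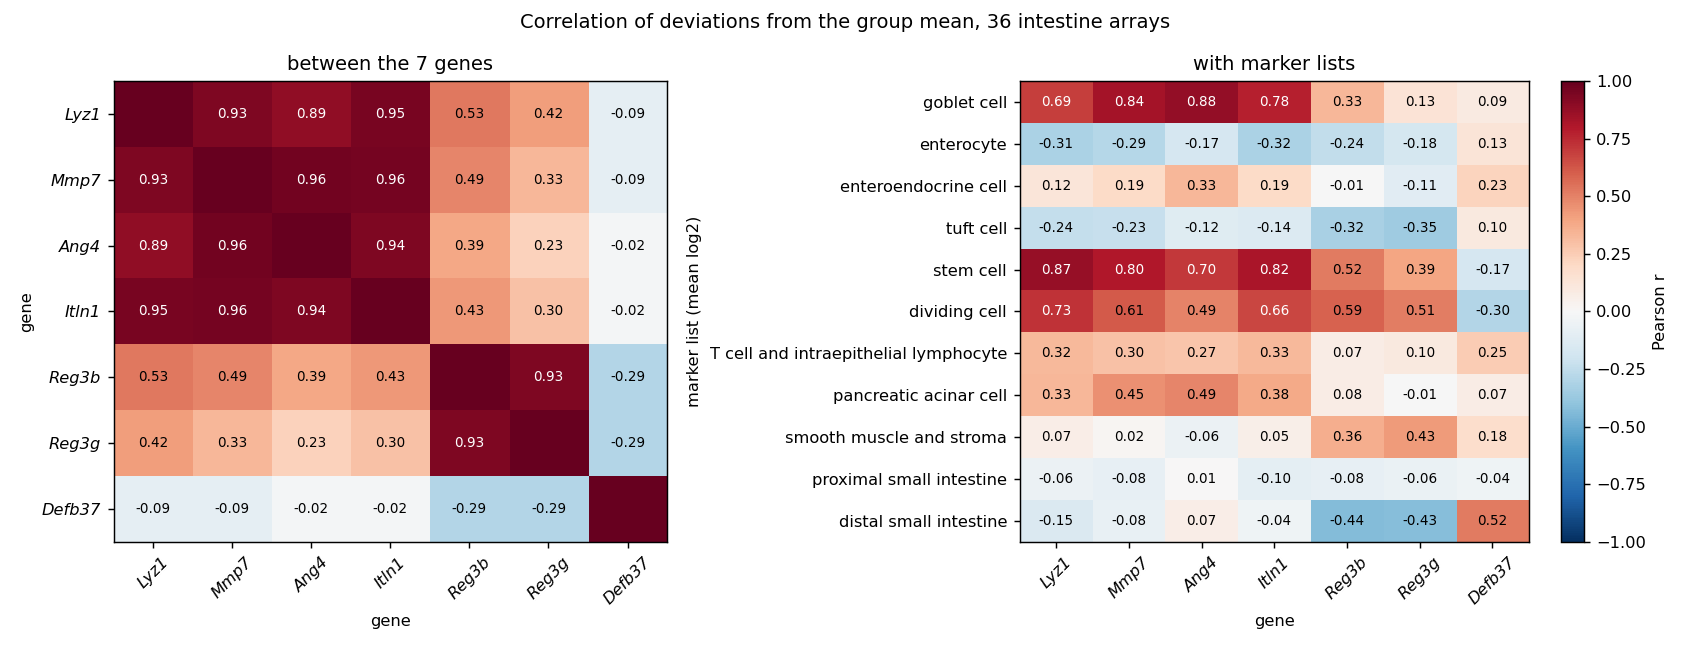
Pearson r of array deviations from the group mean over 36 intestine arrays, between the 7 genes (left) and between each gene and the mean log2 level of 11 marker lists (right), on a scale of -1 to 1. Lyz1, Mmp7, Ang4 and Itln1 form a block of 0.89 to 0.96 and also follow goblet and stem cell markers, while Reg3b pairs with Reg3g at 0.93.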

How the data were processed

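RNA of intestine and liver was hybridised to 1-colour Affymetrix arrays. The deposited values are linear probe set intensity, summarised with PLIER in Affymetrix Expression Console 1.1.1 per the submitters' processing notes; background correction and normalization settings are not given in the sources used here. The authors' deposited tables also hold p-values of JTK_CYCLE, BIO_CYCLE and Cyber-T, and JTK lags in hours. Of 35556 probe sets 23188 were named, 21797 through the platform annotation and 1391 through gene symbols in the authors' deposited tables. The highest-mean probe set of each of 20789 genes was kept.

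Intensities were analysed as log2(intensity + 16), and 7.81% of values lay under that pseudocount. Genes under the 40th percentile of mean level were left out, which left 12473 in intestine. limma 3.58.1 in R 4.3.3 fitted 12 group means (lmFit, eBayes) for diet over all times, diet at each time, diet by time, and a 24 h cosine curve per diet, with Benjamini-Hochberg adjustment over all genes tested and a threshold of 0.05. Correlations used scipy 1.17.1 with permutation within groups. On simulated data with the same 12473 genes, 97.0% of 67 randomly picked genes changed 1.25-fold by diet were recovered. For a rhythm difference of 1.25-fold amplitude the share was 76.1%. Only a small part of the genes was changed there, while 50.9% were called by diet in the data. The simulated noise was independent between genes and arrays. Residual spread (SD, log2) was 0.578 for Mmp7 and 0.625 for Ang4, against a median of 0.128 over all genes. The recovered share therefore does not carry over to Mmp7 and Ang4.

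The 7 genes and all gene lists were chosen with earlier results of these data known. Beside the 7 genes, those named were up to 8 called genes per direction of the antimicrobial list and up to 3 genes of other lists with the lowest adjusted p, and the 3 genes most correlated with each of the 7 (predicted genes skipped). Reg3a and the alpha-defensin genes were added after their values were seen. Promoters came from RefSeq (GRCm38.p6), which held 6 of the 7 genes. None of the 7 passed the liver filter, so liver and tissue-difference tests hold none of them. Array number limits the precision. Alternatives covered the filter, pseudocount, normalization, variance model, probe set choice, arrays left out and a replicate block. The replicate numbers did not pair the samples: of 13 numbers shared between diets, 1 was at the same time point, with a median correlation of deviations of 0.104.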

Additional observations from a re-analysis of the deposited data

Results flagged for a closer look

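Signal of 3 of the genes appeared in 1 liver array, outside the intestine comparisons. On ketogenic ZT8 liver replicate 24 Lyz1 was 355, against a highest chow liver value of 64.1 and a median of 26.2 on the other 35 liver arrays. Reg3b was 91.4 on the same array, against a highest chow liver value of 23.3 and a median of 7.70. Reg3g was 91.6 there, against a highest chow liver value of 15.0 and a median of 6.06. Of 13 other intestinal genes looked at, 11 had their highest liver value on this array, among them Defa26 (442) and Zg16 (133). For Sis, another of the 11, the margin over the next array was small. Olfm4 (26.5, highest other liver array 144) and Fabp2 (2562, highest other 2710) were not highest on it. The share of all genes with their highest liver value on this array was not computed, so the count of 11 has no background. Among the 7 genes Itln1 was also highest there (25.0), and Mmp7 (122), Ang4 (17.2) and Defb37 (56.5) were not, while the pancreatic genes Cpa1 (81.5) and Prss2 (140) lay within the range of the other liver arrays. The next highest liver array for the 3 genes was ketogenic ZT12 replicate 12, with Lyz1 at 66.2, Reg3b at 46.4 and Reg3g at 41.8. The source of this signal was not tested.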

How the results depend on the processing

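The mean diet differences of Itln1, Reg3b, Reg3g and Defb37 kept their call and direction under each alternative in which they were refitted, with ranges of -0.42 to -0.25, 0.19 to 0.26, 0.26 to 0.32 and -1.73 to -1.57 on leaving out each array in turn. The difference of Lyz1 (-0.092 to 0.0059 on leaving out each array) changed sign without ketogenic ZT0 replicate 1 (0.0059) and without the 3 arrays of wide spread (0.011), and that of Mmp7 (-0.15 to 0.062) did so in the same settings (0.062 and 0.082) and without chow ZT8 replicate 11 (0.0052) or 12 (0.0097). Counts over all genes moved more. The diet by time interaction, 4 genes, became 1 with a 60th percentile filter, 2 with a pseudocount of 1, 8 with median centring and 116 without the 3 arrays. The rhythm difference, 5 genes, became 2 with that filter, 20 with quantile normalization, 27 with median centring, 11 with a variance trend and robust eBayes, 15 without ketogenic ZT0 replicate 1 and 41 without the 3 arrays. Without the 3 arrays, calls summed over 6 time points were 9382 (4513 with all) and chow rhythms 1929 (1111 with all). Fitting each diet alone gave 1835 chow and 986 ketogenic rhythms (1825 ketogenic with both) and ended the ketogenic rhythm call of Defb37 (adjusted p = 0.0528). A 1.5-fold minimum left 161 of 6349 diet calls. Among the 7 genes only Defb37 (3.18-fold lower) met that minimum, so Itln1 (1.26-fold lower), Reg3g (1.22-fold higher) and Reg3b (1.17-fold higher) would lose their call under it. Leaving out each array gave 5877 to 6778 diet calls, 3678 to 7043 over 6 time points, 1 to 44 interactions, 1478 to 2107 ketogenic and 862 to 1474 chow rhythms, 3 to 20 rhythm differences, and 8 to 10 higher and 5 to 8 lower antimicrobial genes, the 8 without chow ZT8 replicate 10. The causes were not tested. With the replicate block, which rests on numbers that do not pair the samples, 6692 genes were called by diet and the difference of Defb37 was -1.66; no call among the 7 genes changed. Intensities near the pseudocount carry little information, so liver levels of these genes were not ranked.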
